A study of Mus musculus with 216 samples.

Results

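The genes described here are Shh, Kcna1, Chat, Slc18a3, Hapln3, Adcy4, C4b and Sept5, 8 of the 21938 protein-coding genes that GENCODE vM21 places on mouse chromosomes 1 to 19, X and Y. They were chosen by their large share of gene body in fast domains, that is, in H3K9me3 domains that the authors' deposited table puts in the class "fast" of decay. Each gene was read over a window made of its gene body and 5 kb to either side. Since the choice used the class of the domains, the presence and size of the fast domains are a description, with no test.

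H3K9me3 is trimethylation of lysine 9 on histone H3, a mark of silent chromatin that HP1 proteins bind and that SUV39H1, SUV39H2 and SETDB1 write. In embryonic stem cells it is best known over repeats and retroviral insertions, and some genes of later tissues also carry it. A gene can carry the mark at its start, where transcription begins, or further along its body, over introns and exons.

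The cells were mouse embryonic stem cells of 1 line, dTKO. All samples were Suv39h2-/- and carried floxed alleles of the other 2 methyltransferase genes, Suv39h1fl/fl and Setdb1fl/fl. They were grown in LIF/FCS medium, and were given dTAG13 (0.5 µM) together with auxin (100 µg/ml); both compounds send tagged proteins to degradation, and which proteins carry the tags is not given in the labels. Samples were taken 0, 1, 3, 12, 24 and 48 h later, with 0 h as the reference, and all 6 groups share the line, genotype and medium. Chromatin was precipitated for H3K9me3 (antibody Abcam ab8898) and for HP1b, with Drosophila chromatin as a spike-in, and the H3K9me3 groups hold 54 sequencing runs in all, 9 per time from 3 biological repeats. The table that was used gives 1 class in words per H3K9me3 domain (fast, intermediate, slow or residual) and 0 columns of sample values. No value below therefore has an error between cultures, the depth behind a class is unknown, and cell identity rests on the labels. Coordinates are on mm10, counted from 1, and domain edges lie on a grid of 300 bp.

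Each of the 8 genes had 1 fast domain in its window, and the genes shared 7 such domains because Slc18a3 lies inside Chat. Over all protein-coding genes, 1.93% had a fast domain in the window, a figure from which nothing is read here because the members were chosen on it. Coding sequence lay in the fast domain in 8 of 8 genes (0.447% of all coding genes), and the annotated gene start lay in it in 0 of 8 (0.114%). A fast domain came within 1 kb of at least 1 start of a coding transcript in 4 of 8, namely Kcna1, Chat, Slc18a3 and Sept5 (0.251% of all coding genes). Another class was present in the windows of 4 of 8 genes, Kcna1, Chat, C4b and Sept5, and it was intermediate each time, in 5 domains (32.2% of all coding genes had a domain of another class in the window). No slow or residual domain fell in any of the 8 windows, and over all coding genes 9.65% had a slow and 4.28% a residual one, so a count of 0 among 8 says little. The share of the gene body in fast domains ran from 23.9% in Chat to 85.5% in Slc18a3, with a median of 37.9%, against a median of 0 over all coding genes and of 2.04% over the 338 coding genes with a fast domain on the body.

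**Figure D1:**
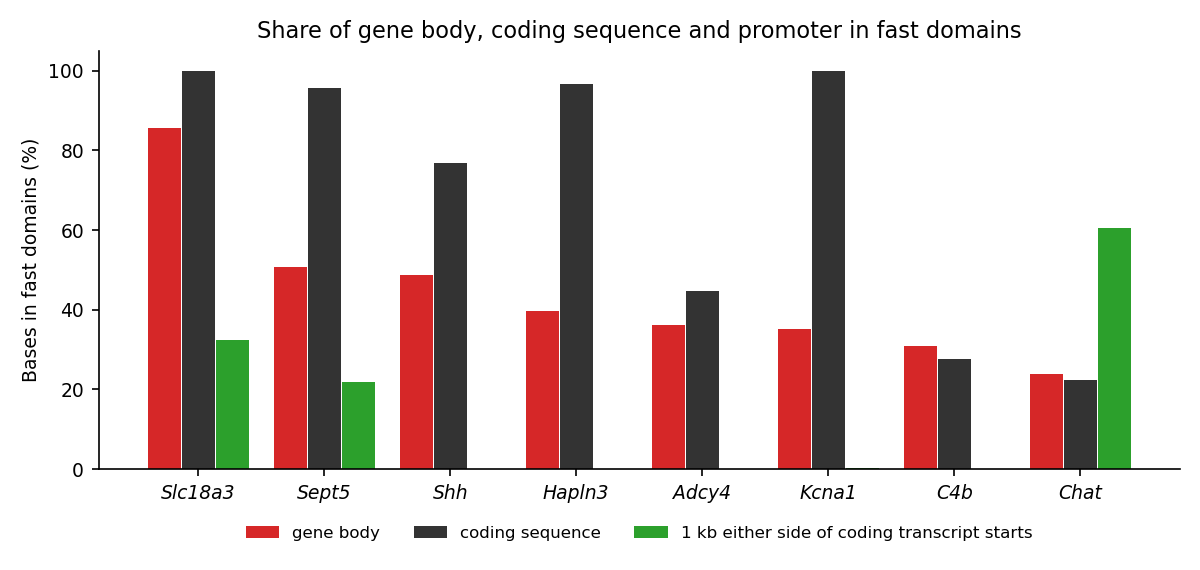
Bars give, for each gene (x axis, ordered by body share), the percent of bases in fast domains (y axis) for the gene body, for the coding sequence of all coding transcripts and for the 1 kb either side of the starts of coding transcripts. Coding shares reach 100% in Kcna1 and Slc18a3, while the promoter share is 0 in Shh, Hapln3, Adcy4 and C4b.

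**Figure D2:**
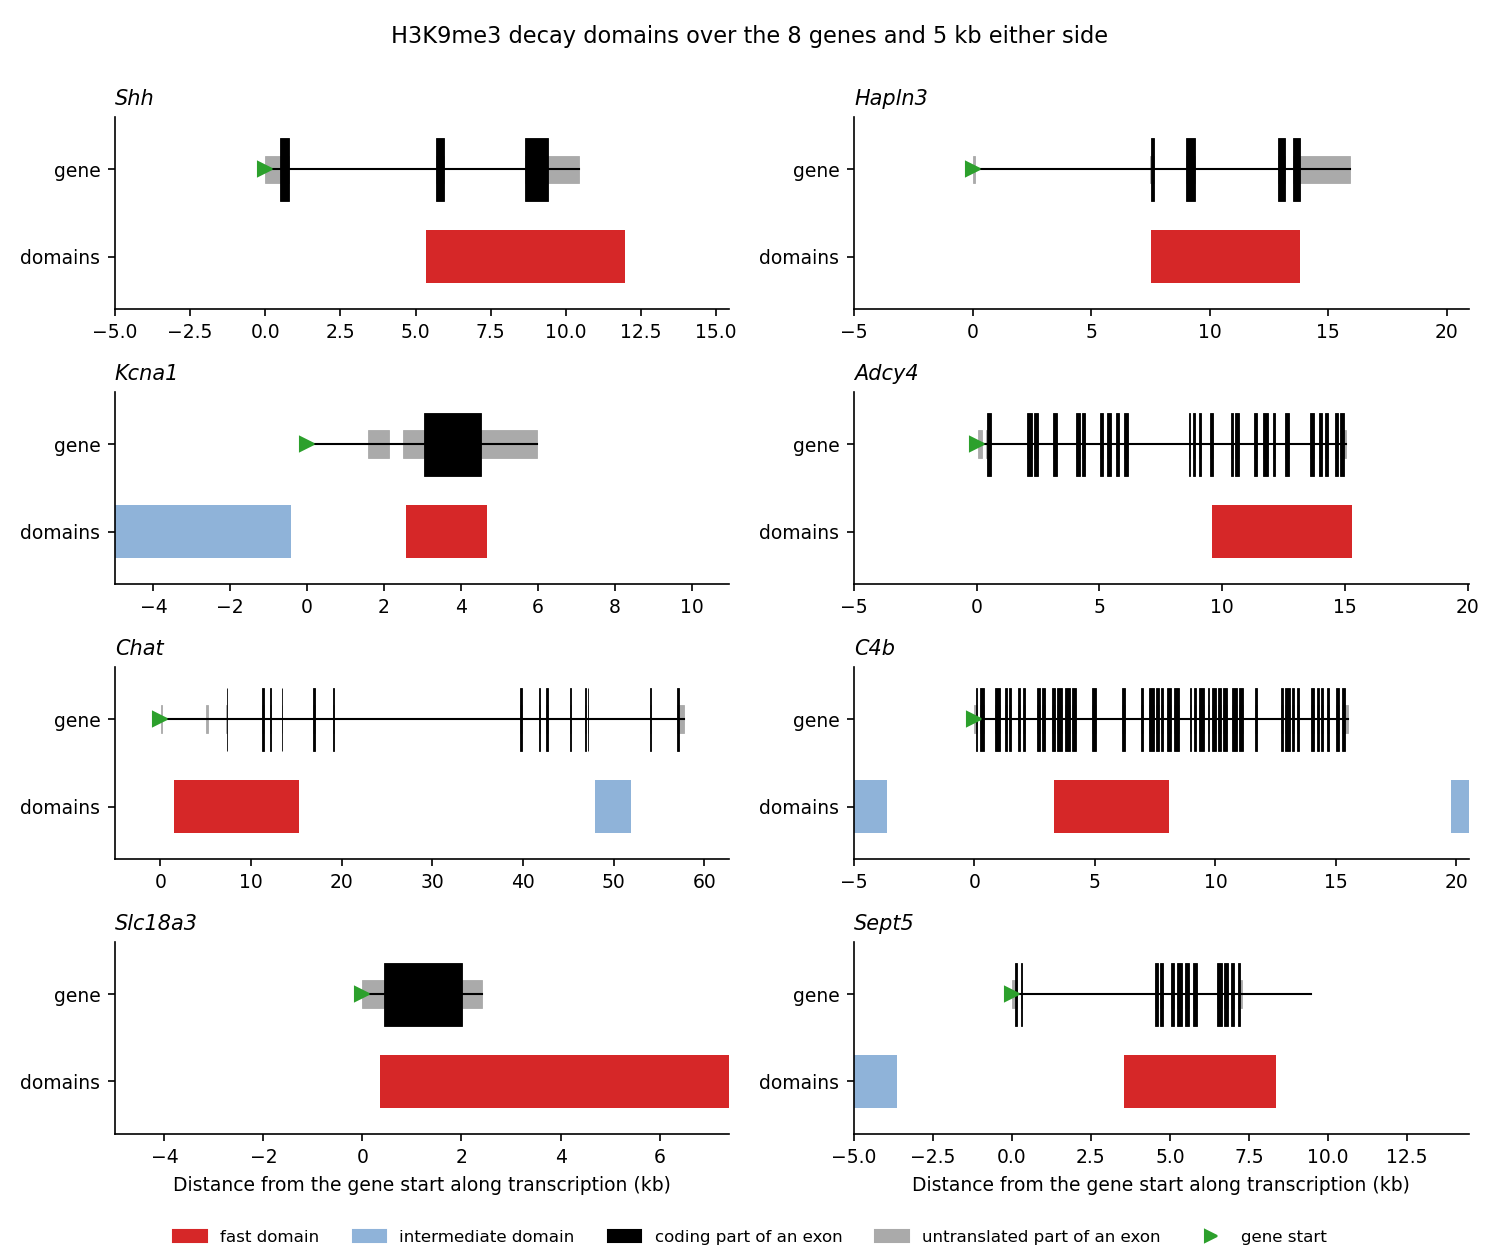
Each panel maps 1 gene and 5 kb either side, with the distance from the gene start in the direction of transcription in kb on the x axis. The upper row shows exons of the coding transcript with the longest coding sequence, the lower row the domains by class, and in all 8 panels the fast domain begins after the gene start.

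Shh encodes Sonic hedgehog, the secreted ligand that patterns the neural tube and the limb. It lies at chr5:28456815-28467256 on the minus strand, as all 8 genes do (50.1% of all coding genes do). Its fast domain at chr5:28455301-28461900 was 6.6 kb wide and covered 48.7% of the body. Exon 1, which holds the start and the first 303 coding bases, lay outside it, at a distance of 5356 bp from the gene start to the domain. Exons 2 and 3 lay wholly inside, so that 1008 of 1311 coding bases (76.9%) were covered, and the domain ran 1514 bp past the end of the gene. It was the only domain in the window. The domain also overlaps the antisense gene 9530036O11Rik, and a domain class has no strand. A CpG island of 1201 bp that overlaps exon 3 lay wholly inside the domain, and another of 1355 bp, in the intron after exon 1, lay wholly outside (GC at least 55%, observed over expected CpG at least 0.65, at least 500 bp). The first coding bases inside the domain are those of exon 2, shown 5′ to 3′ because they mark where the covered part of the gene begins. Capitals are coding bases, and the lower case is the intron that follows.
Shh exon 2, chr5:28461284-28461583, minus strand: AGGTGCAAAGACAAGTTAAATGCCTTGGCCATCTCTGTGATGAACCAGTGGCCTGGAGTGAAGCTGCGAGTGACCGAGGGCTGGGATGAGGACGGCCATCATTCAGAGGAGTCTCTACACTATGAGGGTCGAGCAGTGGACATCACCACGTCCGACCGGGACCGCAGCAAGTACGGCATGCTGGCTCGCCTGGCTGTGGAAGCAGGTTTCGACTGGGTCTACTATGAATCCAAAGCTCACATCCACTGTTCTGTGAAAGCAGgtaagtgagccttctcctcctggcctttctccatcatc

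Kcna1 encodes Kv1.1, a voltage-gated potassium channel of axons, and its whole coding sequence sits in 1 exon. The gene lies at chr6:126640397-126646384 and its fast domain at chr6:126641701-126643800. This domain was the narrowest of the 7, at 2.1 kb, and covered 35.1% of the body but 1485 of 1485 coding bases. It began 445 bp before the first coding base and ended 170 bp after the last one. The distance from the annotated gene start was 2584 bp, and 996 bp from the start of the transcript with the longest coding sequence, so that the domain touched only 0.248% of the bases within 1 kb of coding starts. A second domain, intermediate and 8.7 kb wide, lay upstream at chr6:126646801-126655500, 3 kb from the fast one. Islands by the stricter thresholds split in the same place: 1 of 641 bp lay wholly inside the domain over coding sequence, and 2, of 1217 and 554 bp, lay before it, the first of them over the start of that transcript. The first 300 coding bases are shown with all letters in capitals, as coding sequence, because they come from the covered exon and hold 27 CpG dinucleotides.
Kcna1 coding start, chr6:126643056-126643355, minus strand: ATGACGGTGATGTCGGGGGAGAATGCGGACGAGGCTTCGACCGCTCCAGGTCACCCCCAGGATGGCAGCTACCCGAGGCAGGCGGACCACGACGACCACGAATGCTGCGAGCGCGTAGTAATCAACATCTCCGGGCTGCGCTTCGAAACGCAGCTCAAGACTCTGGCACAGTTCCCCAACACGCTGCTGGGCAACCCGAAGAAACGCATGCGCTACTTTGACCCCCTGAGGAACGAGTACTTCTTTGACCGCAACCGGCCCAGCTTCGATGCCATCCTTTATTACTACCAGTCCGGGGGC

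Chat and Slc18a3 form the cholinergic gene locus. Chat encodes choline acetyltransferase, which makes acetylcholine, and Slc18a3 encodes the transporter that loads it into synaptic vesicles. Chat covers chr14:32408203-32465989, and the single-exon Slc18a3, at chr14:32462438-32464850, lies in the first intron of Chat. Both share the fast domain at chr14:32450701-32464500, which at 13.8 kb ranked 2 in width among the 1498 fast domains. In Chat it covered 23.9% of the body and 22.3% of the coding sequence, taking in exons 2 to 6 of 16, of which 4 hold coding bases. The gene start of Chat lay 1489 bp outside it, while 2 of its 4 annotated starts of coding transcripts lay inside, and 60.4% of the bases within 1 kb of those starts were covered. An intermediate domain of 3.9 kb at chr14:32414101-32418000 covered a further 6.75% of the Chat body near its other end. In Slc18a3 the domain covered 85.5% of the body and 1590 of 1590 coding bases. The domain edge lay 76 bp before the first coding base and 350 bp after the transcript start, so the start itself stayed outside and 32.5% of the bases within 1 kb of it were covered. A CpG island of 2710 bp spans the Slc18a3 start, and 64.8% of it lay inside the domain.

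The edge at Slc18a3 separates the pair of sequences shown next, from the 2 sides of it. The first, inside the domain, is the start of the coding sequence, all in capitals as coding bases. The second, outside it, is the 250 bases before the transcript start in the RefSeq promoter table (GRCm38.p6), with CG dinucleotides in capitals, 21 in all. The full RefSeq window of 300 bases holds 27 CpG, ends 300 bp from the domain, and compares with a median of 7 over 32851 promoters of that length, of which 15.5% hold at least as many.
Slc18a3 coding start, chr14:32464125-32464424, minus strand: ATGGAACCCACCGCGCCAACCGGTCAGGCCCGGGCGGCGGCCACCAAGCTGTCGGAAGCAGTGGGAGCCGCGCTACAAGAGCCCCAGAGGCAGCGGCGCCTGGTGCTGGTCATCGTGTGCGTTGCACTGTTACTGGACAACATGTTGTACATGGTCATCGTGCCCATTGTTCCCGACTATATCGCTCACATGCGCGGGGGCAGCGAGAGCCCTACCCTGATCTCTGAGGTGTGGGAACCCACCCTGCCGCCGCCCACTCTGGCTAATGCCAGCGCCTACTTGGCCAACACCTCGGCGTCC
Slc18a3 before the start, chr14:32464851-32465100, minus strand: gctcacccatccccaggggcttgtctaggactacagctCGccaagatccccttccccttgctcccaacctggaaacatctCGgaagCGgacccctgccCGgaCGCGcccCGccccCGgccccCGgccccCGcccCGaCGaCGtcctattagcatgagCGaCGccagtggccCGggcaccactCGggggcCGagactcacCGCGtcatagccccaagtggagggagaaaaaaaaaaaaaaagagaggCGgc

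REST, a repressor of neuronal genes, binds RE1 elements, and the cholinergic locus is a textbook target. The core of that element was searched as AGCACC, then 2 bases of any kind, then GGACAG, on both strands. The windows of the 8 genes held 1 match, at chr14:32467786-32467799, 1797 bp before the Chat start and 3286 bp outside the fast domain. Of all 42890 domains on the main chromosomes, 20 held a match, 1 of them fast. A match is a description of letters and not a measured site.

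Hapln3 encodes a link protein that ties hyaluronan to proteoglycans in the extracellular matrix. It lies at chr7:79115102-79131018, and its fast domain at chr7:79117201-79123500 was 6.3 kb wide and covered 39.6% of the body. The domain followed the coding part of the gene closely. In the transcript with the longest coding sequence it began 7 bp before the first coding base and ended 12 bp after the last one, both less than 1 step of the grid, and so held 1077 of 1077 coding bases in 4 of 4 coding exons. Over all coding transcripts the share was 96.8%. The first exon, the long first intron and most of the untranslated end lay outside, 7518 bp separated the gene start from the domain, and no other domain fell in the window. The neighbouring gene Acan, which encodes the proteoglycan aggrecan, ends 2 bp from Hapln3, and the same domain falls in its window without touching its body. The bases at the upstream edge of the domain are shown with the coding part of that exon in capitals and the intron in lower case.
Hapln3 coding start, chr7:79123194-79123493, minus strand: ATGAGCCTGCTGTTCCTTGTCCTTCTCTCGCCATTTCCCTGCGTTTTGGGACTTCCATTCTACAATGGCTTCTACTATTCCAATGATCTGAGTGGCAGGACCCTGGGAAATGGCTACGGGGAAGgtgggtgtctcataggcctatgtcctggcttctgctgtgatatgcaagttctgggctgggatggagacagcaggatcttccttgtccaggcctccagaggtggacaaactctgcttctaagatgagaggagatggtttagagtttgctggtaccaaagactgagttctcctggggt

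Adcy4 encodes an adenylyl cyclase, an enzyme that makes cyclic AMP. It lies at chr14:55769057-55784095, and its fast domain at chr14:55768801-55774500 was 5.7 kb wide and covered 36.2% of the body. It lay over the far end of the gene: 9595 bp separated it from the gene start, the longest such distance of the 8, and it ran 0.256 kb past the gene end. It touched 12 of 25 coding exons, 11 of them whole, and held 44.7% of the coding sequence. No other domain fell in the window, and its neighbours Ltb4r1 and Ripk3 lie 0.562 and 0.899 kb away.

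C4b encodes complement component 4, which is cleaved when the classical and lectin pathways are triggered. It lies at chr17:34728380-34743882, and its fast domain at chr17:34735801-34740600 was 4.8 kb wide and covered 30.96% of the body. The domain lay in the middle of the gene, from 3282 bp after the start, and touched 11 of 41 coding exons with 27.6% of the coding sequence. Intermediate domains lay on both sides in the window, 1.5 kb wide at chr17:34722601-34724100 and 15.6 kb wide at chr17:34747501-34763100. C4b differed from the other members in its copies. Of the 31-base words read every 10 bp inside the domain, 52.4% occurred once in the genome and 38.4% in exactly 2 copies, while in the other 7 genes 96.7% to 100% occurred once. Its near-identical neighbour C4a, annotated at chr17:34809092-34823464 as a processed transcript, lies 65.2 kb away. The C4a window held 1 intermediate domain of 3.6 kb and no domain on the body. The labels name signal tracks with multiply matching reads, so reads of C4b and C4a may be shared between them; this was not tested.

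Sept5 encodes a septin, a GTP-binding protein of the cytoskeleton found at presynaptic endings. It lies at chr16:18620502-18629954, and its fast domain at chr16:18621601-18626400 was 4.8 kb wide and covered 50.8% of the body. In the transcript with the longest coding sequence, the first 2 coding exons lay outside and the other 10 of 12 inside, with 95.3% of its coding bases. Over all coding transcripts the share was 95.6%. The gene start lay 3554 bp from the domain, but 21.9% of the bases within 1 kb of starts of coding transcripts were covered. An intermediate domain of 1.5 kb at chr16:18633601-18635100 lay upstream. The domain also covers 80.5% of the overlapping gene Gm49601 and 38.5% of Gp1bb, which encodes a platelet glycoprotein, although none of the Gp1bb coding sequence. A domain over 3 overlapping genes cannot be given to 1 of them. The first coding bases of Sept5 inside the domain are shown, with its 2 coding exons there in capitals and introns in lower case.
Sept5 first covered exons, chr16:18625142-18625441, minus strand: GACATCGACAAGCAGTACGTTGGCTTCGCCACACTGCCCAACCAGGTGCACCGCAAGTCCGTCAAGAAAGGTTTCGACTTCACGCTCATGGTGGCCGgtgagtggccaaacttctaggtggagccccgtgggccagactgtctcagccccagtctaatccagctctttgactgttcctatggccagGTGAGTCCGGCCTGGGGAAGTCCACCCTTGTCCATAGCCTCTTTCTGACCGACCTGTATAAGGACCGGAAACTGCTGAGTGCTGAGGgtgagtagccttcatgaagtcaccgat

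The covered part of these genes was mostly richer in coding bases than the rest. Own coding sequence made up a median of 25.5% of the body inside the domain and 2.29% of the rest of the body, and it was higher inside in 6 of 8 genes. The exceptions were Chat, with 3.123% inside and 3.42% in the rest, and C4b, with 29.96% inside and 35.3% in the rest. The Chat domain also holds the coding sequence of Slc18a3, which is not counted as Chat's own. Coding sequence of any gene made up 14.6% of that domain. In the transcript with the longest coding sequence of each of the 8 genes, 9563 of 16986 coding bases in all (56.3%) lay in fast domains. Of the coding exons of these transcripts, 45 of 101 were touched. Over all coding transcripts, at least 75% of the coding sequence lay inside in 5 of 8, Shh, Kcna1, Slc18a3, Hapln3 and Sept5. Among the 338 coding genes with a fast domain on the body, 29.0% had any coding sequence in one, and of the 1498 fast domains 6.21% held any. Of genes of at least 5 kb with at least 30% of the body in a class, coding sequence lay in the class in 10 of 10 for fast domains. Of those 10 genes, 6 are members and Gm49601 shares the Sept5 domain, so this count is mostly that of the members themselves. For intermediate, slow and residual domains the shares were 77.6%, 78.6% and 88.8%. Members were chosen by body share, and coding sequence is part of the body, so these shares are given without a test.

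**Figure D3:**
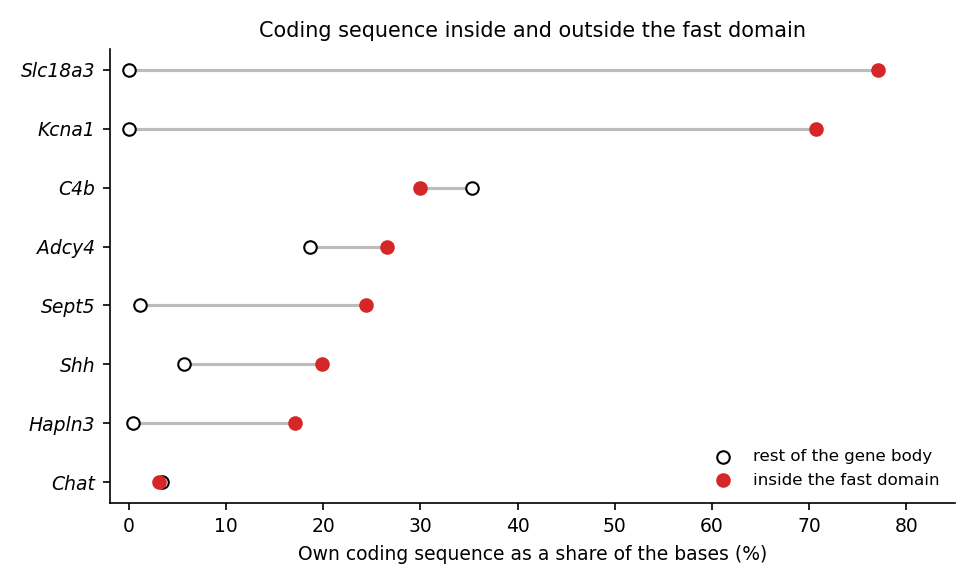
Points give the gene's own coding sequence as a percent of bases (x axis) for the part of the body inside the fast domain (red) and for the rest of the body (open), with 1 row per gene. The red point is to the right in 6 of 8 genes, and Chat and C4b are the exceptions. For Chat, the coding bases of Slc18a3 inside its body are not counted.

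Base composition inside the domain went both ways against the rest of the same genes. GC content was higher inside the domain than in the rest of the body in 4 of 8 genes and lower in 4, with medians of 53.9% and 53.2%. The observed over expected CpG ratio was higher inside in 3 of 8, with medians of 0.348 and 0.410. Soft-masked repeat bases made up a median of 12.8% inside and 12.5% of the rest. The covered part of Slc18a3 had a CpG ratio of 0.804 and that of C4b 0.149, the highest and the lowest of the 8.

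Set beside all fast domains, the 7 domains had higher medians of width and GC content and a lower median of repeats. Their median width was 5.7 kb against 2.7 kb for all 1498, although the Kcna1 domain, at 2.1 kb, was below that, their median GC content 53.2% against 43.7%, and their median soft-masked share 12.8% against 71.7%. A median of 97.1% of their 31-base words occurred once in the genome, against 46.7%, and the C4b domain was the exception with 45.8%. The 86 other fast domains with coding sequence had medians of 48.7% for GC, 14.7% for soft-masked bases and 94.7% for unique words, so in these 3 measures they lay closer to the members' domains than all fast domains did, but not in width, at 2.55 kb. The members' domains held a CpG island in 7 of 7 (GC at least 50%, ratio at least 0.6, at least 200 bp), against 46.1% of all fast domains and 68.6% of those 86. With the stricter thresholds it was 3 of 7, those of Shh, Kcna1 and the Chat and Slc18a3 pair, against 4.41% and 18.6%. These domains come from genes chosen for a large share of the body in fast domains, a rule that favours wide domains on genes. Their greater width is therefore part of the choice and not a trait found here. A wider domain also has more room for an island, so the island counts cannot be told apart from width. Slow domains, with a median width of 4.2 kb, held an island by the first thresholds in 59.0%. No test was made of any of these values.

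**Figure D4:**
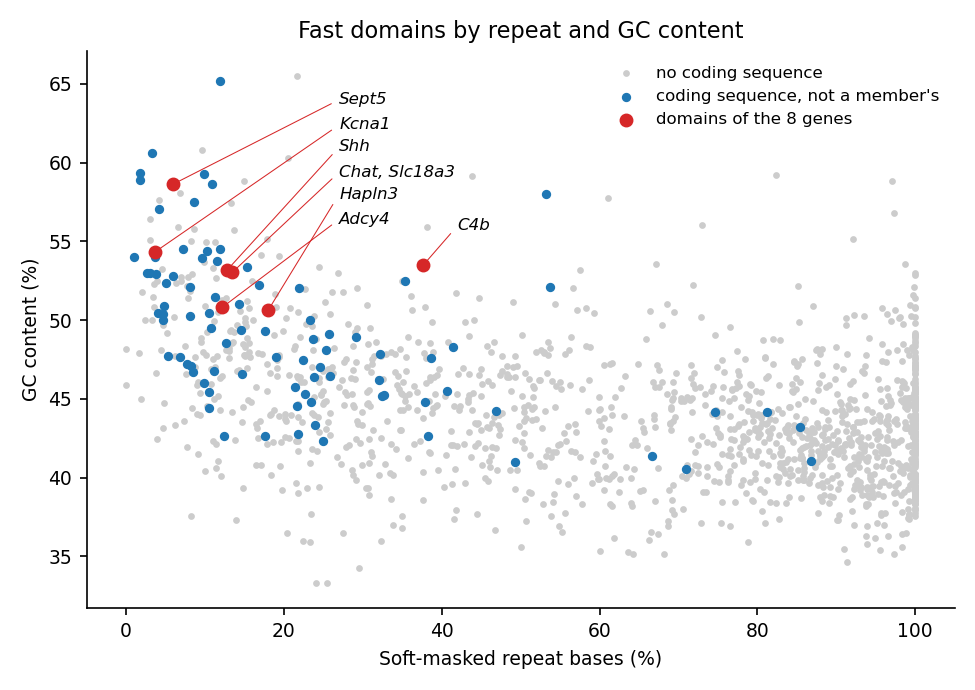
Each point is 1 of 1498 fast domains, by its soft-masked repeat bases in percent (x axis) and GC content in percent (y axis), coloured by whether it holds coding sequence. The 7 domains of the 8 genes sit among the other domains with coding sequence, above 50% GC, and the C4b domain stands to their right at 37.6% repeat bases.

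Most domains next to the fast domains of these genes were intermediate. Of the 14 nearest domains to either side, 12 were intermediate, 1 slow, 1 residual and 0 fast, against 76.8% intermediate and 8.08% fast for the neighbours of all fast domains, and with 14 neighbours nothing is read from the difference. Within 500 kb of the gene a second fast domain was present only at the Chat locus, 416.1 kb away, and fast domains make up 3.49% of all domains. For the other 6 domains the nearest fast domain lay from 503.7 kb at Kcna1 to 5034 kb at Sept5. All 10 other domains within 500 kb of Kcna1 were intermediate, as were 12 of 13 around Sept5, whereas around Shh 8 of 16 were intermediate, 6 slow and 2 residual; of all domains 71.5% are intermediate.

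Ranked by body share among the 17798 coding genes of at least 5 kb, Sept5 came 3, Shh 4, Hapln3 6, Adcy4 7, Kcna1 8, C4b 10 and Chat 16; Slc18a3 is shorter than 5 kb and was not ranked. The genes above Chat that are not members were Gm49601 (80.5%), Dmrtc1a (71.03%), Zfp873 (40.0%), Efnb1 (35.0%), Vnn3 (29.4%), Olfr1428 (29.3%), Hrnr (26.05%), Ankrd66 (25.4%) and Olfr1256 (24.6%). Just below Chat, at 23.9%, stood Mapk12 with 23.7%, Gm17402 with 21.6%, 4930486L24Rik with 20.6%, Ephb6 with 20.0% and Reg2 with 19.8%. There is thus no gap in body share between the members and the genes next to them. Likeness to genes other than the 8 was measured by the sum of differences in body share over the 4 classes. By it the gene most like Kcna1 and Adcy4 was Efnb1, which encodes an ephrin ligand, at 0.08 and 1.21 percentage points. Gp1bb was nearest to Hapln3 (1.104 points), Vnn3 to C4b (1.59 points), AU022751 to Slc18a3 (2.85 points), and Mapk12 to Chat (6.91 points). Adra2c, which encodes an adrenergic receptor, was nearest to Shh (6.24 points) and Sept5 (8.31 points). These likenesses are over 1 table, not over samples.

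The gene start lay outside the fast domain in all 8 genes, at 350 to 9595 bp from it. Among all coding genes with the class on the body the start was inside in 7.40% for fast, 7.04% for intermediate, 7.17% for slow and 18.5% for residual domains, so 0 of 8 is near the share for fast domains. Of the 10 coding genes of at least 5 kb with at least 30% of the body in fast domains, 6 are members, and the gene start lay in the domain in 1 of 10, Dmrtc1a. The corresponding share was 18.0% of 161 genes for intermediate domains, 14.3% of 126 for slow and 30.3% of 89 for residual. The difference between the classes was not tested.

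Other genes of the same pathways mostly carried other classes or none, as most coding genes do. Lists of 115 gene entries in 7 groups were matched by symbol, and 106 of the 107 that are not members were found as coding genes. Sept2 is annotated under separate identifiers at the same locus, and each of them is counted as an entry. Of these 106, 6 had a fast domain in the window (5.66%, against 1.93% of all coding genes), 27 an intermediate one (25.5% against 24.7%), 8 a slow one (7.55% against 9.65%) and 10 a residual one (9.43% against 4.28%). A domain of some class fell in the window of 44 (41.5%, against 32.9% of all coding genes), and in 62 none did. The 6 with a fast domain were Kcnab1, Chrm2, Chrna1, Acan, C7 and Sept3, and none of them had coding sequence in it. In Chrna1, Acan and Sept3 the domain lay off the body and so could not hold any. Of the 338 coding genes with a fast domain on the body, 29.0% had coding sequence in one, so nothing is read from this. For Acan it was the Hapln3 domain itself.

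Against 1.93% and 24.7% of all coding genes, 0 of 18 other genes in the hedgehog list had a fast domain and 5 an intermediate one. The latter were Hhat, the acyltransferase of the ligand, Disp1, which releases it from cells, Boc, a co-receptor, Gli2, a transcription factor of the pathway, and Lmbr1, which holds the limb enhancer of Shh in an intron. In Disp1 69.5% and in Boc 25.6% of the coding sequence lay in intermediate domains. Gli3 had a slow domain in its window, and Smo, the signal transducer, a residual one over 6.96% of its body. Patched and the other ligands are in the list without a domain in the window.

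Among the 10 other genes of the potassium channel list, 3 had coding sequence in a domain, in each case of another class than fast. That is the usual case. Of all 21938 coding genes, 1321 had coding sequence in an intermediate domain, 550 in a slow, 464 in a residual and 98 in a fast one. Kcna6, the next gene on chromosome 6 at 61.94 kb from Kcna1, had 100% of its coding sequence in an intermediate domain. Kcna2 had 66.5% and Kcna3 63.5% in residual domains. Kcnab1, which encodes an auxiliary subunit, had a fast domain over 1.56% of its body.

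In the cholinergic list, the muscarinic receptor gene Chrm2 had a fast domain over 2.14% of its body, and the muscle nicotinic receptor gene Chrna1 had one in its window only. Chrm3 had 100% of its coding sequence in a slow domain over 0.371% of its body, and also 4 intermediate domains over 2.29% of its body. Chrna6 had 66.1% and Chrnb2 18.8% of the coding sequence in residual domains. Chrna5 had 8.80% of its coding sequence in an intermediate domain, Chrnb3 had an intermediate domain over 3.32% of its body, and Chrnb1 a residual one in its window only. The other 16 of the 24 genes had no domain in the window. A domain of some class was thus present in 33.3%, against 32.9% of all coding genes.

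In the remaining lists the counts of fast domains were too small to read. A fast domain lay in the window in 10% of the other link protein and lectican genes, 7.69% of the septin entries and 4.55% of the complement genes. The share of all coding genes was 1.93%. Each of these list shares stands for 1 gene, and that of the link protein list is Acan with the Hapln3 domain. Of 9 other adenylyl cyclase genes 0 had a fast domain, which says little beside a share of 1.93%. A domain of some class lay in the window of 8, against 32.9% of all coding genes. Longer genes have wider windows, and gene length was not taken into account. In intermediate domains lay 18.96% of the Adcy1 and 16.0% of the Adcy3 coding sequence. Of 22 other complement genes, C7, a component of the membrane attack complex, had a fast domain over 2.40% of its body. Intermediate domains lay in the windows of 7 (31.8%, against 24.7% of all coding genes). Among the link proteins and lecticans, Has3, a hyaluronan synthase, had 48.7% of its coding sequence in an intermediate domain and Hapln4 3.67% in a residual one. Of 13 other septin entries, with Sept2 counted under each identifier, Sept3 had a fast, Sept14 an intermediate and Sept8 a slow domain in the window, none on the body.

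**Figure D5:**
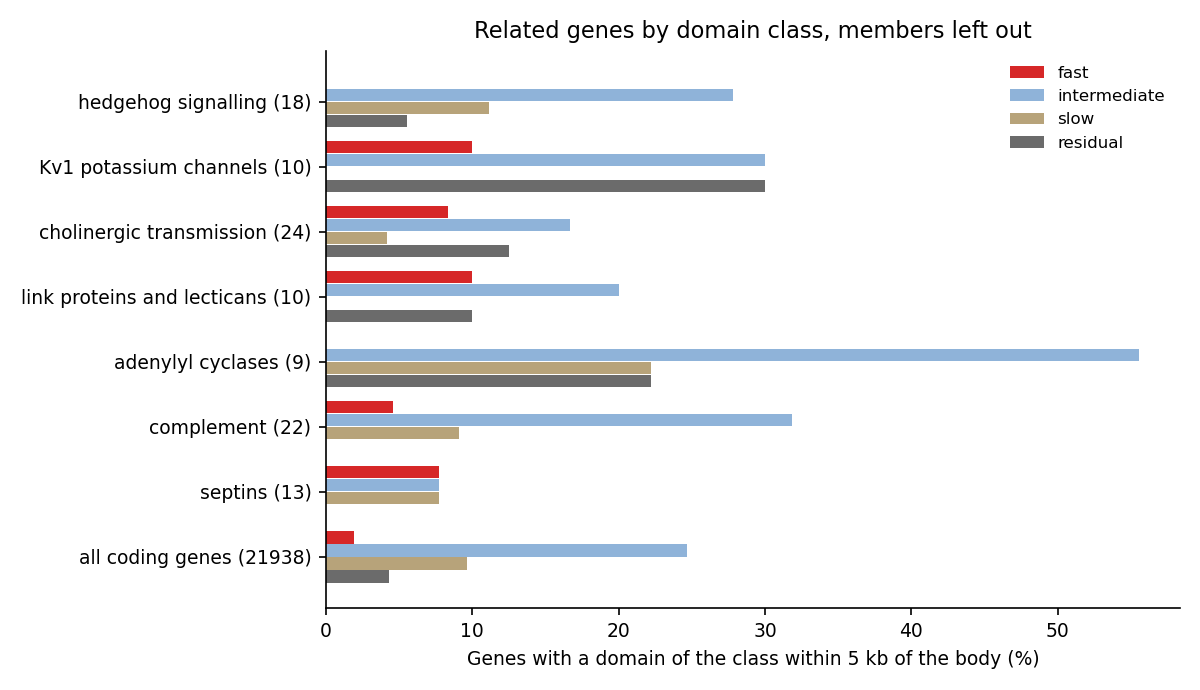
Bars give the percent of genes in each list with a domain of the class within 5 kb of the body (x axis), with the number of gene entries in brackets and the 8 members left out. Fast domains are at 0 in the hedgehog and adenylyl cyclase lists and at 4.55% to 10% in the others, where each bar stands for 1 or 2 genes.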

How the data were processed

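The authors deposited 1 table of H3K9me3 domains, made over the whole time course, in which each domain has its coordinates and, in words, a class of decay; it holds 43039 domains, of which 42890 lie on chromosomes 1 to 19, X and Y and were used. The submitters' processing notes list bedtools, deepTools, SAMtools 1.1 and Bowtie2 2.3.4.1, and the builds mm9, mm10, GRCm38 and dm6. For domain calling, spike-in scaling and the limits between classes, no method is given in the sources used here. Depth per class is unknown, and the signal tracks and HP1b were not analysed here.

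Domains were overlapped, from 1 bp, with GENCODE vM21 gene bodies plus 5 kb, coding sequence, and 1 kb either side of coding transcript starts. Domain sequence came from the GRCm38.p6 genome and promoter sequence from RefSeq, where 4 of 8 genes matched (Chat, Slc18a3, Hapln3 and Adcy4). Copies of 31-base words were counted over both strands of the genome, read every 100 bp in domains and every 10 bp in the genes. Islands joined 200-bp windows past the thresholds given. The members and gene lists were chosen with earlier results of these data known. Genes named were the 8, those on or next to their domains, those above Chat and the 5 below it in rank, and genes among the 2 most alike by body shares. From the lists, up to 3 genes per class with the most bases in the window were planned. The naming departs from this plan. The hedgehog list has 5 intermediate genes named, and genes with more such bases than some named ones, C6 and Adcy2 for instance, are left out. The code was tested on simulated data and ran on matplotlib 3.10.9, numba 0.67.0, scipy 1.17.1, pandas 2.3.3, numpy 2.4.6 and Python 3.11.15.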

Additional observations from a re-analysis of the deposited data

How the results depend on the processing

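Alternatives to the window, promoter, transcript, overlap and domain settings gave 47 values over the 9 results, with 1 setting often giving values for several results. Of these values, 37 stayed near the main value. Near means within 1.5 times the main count or within the 95% binomial interval of the main value. That interval only sets a label and measures no error, since neighbouring bases of a domain are not independent trials. Staying within it is therefore not read as stability of the median body share or of the median share of unique words. A fast domain lay in the window of 8 of 8 members under all 7 alternatives run, which follows largely from the choice of members by fast domains on the body. Leaving out domains of 900 bp or less could not change the members' values, since the narrowest domain in their windows was 1.5 kb wide. Such values are counted among the 37. The median body share ran from 34.9% to 43.7%. The count of members with a domain of another class was 4, and 2 with a flank of 2 kb and 1 with no flank. The count of list genes with a fast domain was 6, and 3 with either of those flanks. Members with a promoter in a fast domain were 4, against 2 with only the transcript of the longest coding sequence. When the promoter had to hold the domain's midpoint, or 50% of its length, the count was 0 in both cases. Each of the 7 domains is wider than a promoter of 2 kb, but that width alone does not force either count to 0. The same rules applied to coding exons gave 2 and 1 members with coding sequence in place of 8. With stricter island thresholds, 3 of 7 domains held an island in place of 7. No paired analysis was possible because the table holds no value per sample, and for the same reason no replicate could be left out. The table gives no error, depth or value per time with a class, and the choice of members by their body share leaves their counts as descriptions.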

Other observations

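Coding genes of any length were also counted by their coding sequence. Counting those with at least 75% of the coding sequence in fast domains gave 24 genes, of which 5 are members, and in 9 of them the share was 100%. The genes named in this paragraph were chosen after their values were seen. Slc32a1, which encodes the vesicular transporter of GABA and glycine, had 100% of its coding sequence and 93.0% of its body in fast domains. With Slc18a3 it makes 2 vesicular transmitter transporters on the list, but in Slc32a1 the gene start lay inside the domain. S1pr1, which encodes a receptor for sphingosine 1-phosphate, had 78.8% of its coding sequence covered at 25.9% of its body, and Lrrn2, a neuronal leucine-rich repeat gene, 100% at 5.02%. Efnb1 had 87.6% at 35.0%, with the start outside. H1fnt, Hist1h2aa and Hist1h2ba, which encode histones of the testis, were at 100%.

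The start was outside the domain in 15 of those 24 genes (62.5%). For the other classes, the same rule gave 198 genes for intermediate, 104 for slow and 122 for residual, with the start outside in 70.7%, 69.2% and 55.7%. As a share of the coding genes with the class on the body, genes covered this way were 7.10% for fast, 5.22% for intermediate, 6.78% for slow and 16.4% for residual. These are counts from 1 table, and the differences between classes were not tested.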
